A study of Homo sapiens with 4 samples.

Results

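Chromosome 1 is the longest human chromosome, and its replication was read here in single S-phase cells of 2 colorectal cancer lines. Its members were all bins of the deposited table that carry the chromosome name 1, which gave 2563 of 27704 bins of 80 kb, or 205 Mb. The cells were 207 S-phase cells of DKO1, derived from HCT116 by knockout of both DNMT1 and DNMT3B (DNA methyltransferases), and 322 S-phase cells of the parental HCT116, labelled WT. Both lines were grown in McCoy's 5A medium with serum and sorted by DNA content with a live-cell dye, the 3 S-phase fractions were mixed evenly, and 1 droplet library was made per line. DKO1 is a single derivative line, so effects of the knockouts and of its separate history as a line cannot be told apart.

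Each chromosome is copied in S phase as a string of domains, stretches of DNA whose origins fire at about the same time. Early domains are typically gene-rich and open, late domains gene-poor and often attached to the nuclear lamina, and between them lie transition regions where timing changes gradually. DNMT1 copies methylation onto newly made strands and DNMT3B can methylate unmethylated sites, and large late-replicating stretches are the ones that commonly lose methylation in cancer cells.

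A bin with code 2 was read as replicated, code 1 as unreplicated and code 0 as not called. Progress through S phase was the percent of a cell's called bins that were replicated, over all chromosomes. It had a median of 48.0% in DKO1 cells (range 9.32 to 78.0%) and 51.9% in HCT116 cells (range 17.0 to 76.7%). To compare the lines at matched progress, cells were placed in 6 strata of 10 points from 20 to 80%, which held 206 DKO1 and 318 HCT116 cells. For each bin, the replicated percent of cells was taken in every stratum and averaged with equal weight, which is called the standardised share here. No cell barcode was shared between the lines. All 2563 bins were called often enough to be used, the limit being 90% of cells per line. With 1 library per line no test between the lines was possible. The 95% intervals given for counts of cells are exact (Clopper-Pearson) and reflect only how many cells were counted. Those given for differences between the lines are about as wide as if each cell gave 1 yes or no. They do not measure the spread of shares between cells.

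The short arm, 1p, replicated ahead of the long arm, 1q, in both lines. The arms are separated in the table by a gap of 23.5 Mb around the centromere, with 1380 bins before it and 1183 after it. The mean standardised share of 1p was 62.6% in DKO1 and 64.5% in HCT116, a difference of -1.90 points. That of 1q was 53.0% in DKO1 and 54.6% in HCT116, a difference of -1.66 points. In single cells, the replicated share of 1p exceeded that of 1q in 193 of 207 DKO1 cells (93.2%) and in 313 of 322 HCT116 cells (97.2%). The median lead of 1p was 10.0 points in DKO1 and 10.1 points in HCT116, so the order of the arms was shared. For the differences between the lines, the counting intervals were -10.6 to 6.77 points for 1p and -10.7 to 7.21 points for 1q. Both span 0, but they do not measure how arm shares spread between cells. They therefore do not show that the lines were alike. Over the whole chromosome the share was 58.2% in DKO1 and 59.9% in HCT116, above the other autosomes with 49.5% in DKO1 and 49.7% in HCT116. Among the 21 chromosomes with at least 100 bins, chromosome 1 ranked 6 in DKO1 and 5 in HCT116 by this share.

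Along both arms the earliest stretches lay in the outer parts of 1p and just beyond the centromeric gap on 1q. Shares were averaged over 12 windows of 20 Mb, 6 on each arm, which hold 2555 of the bins and leave out 120 to 140 Mb, most of which has no bins. The highest was in the window from 20 to 40 Mb on 1p, with 88.3% in DKO1 and 88.2% in HCT116. The window from 140 to 160 Mb, at the start of 1q, had 79.9% in DKO1 and 76.0% in HCT116. The window from 0 to 20 Mb, at the end of 1p, had 77.4% in DKO1 and 76.3% in HCT116, so these 2 windows came in opposite order in the lines. The latest windows lay on 1q. Shares were 26.7% in DKO1 and 36.5% in HCT116 in the last window, from 240 Mb to the end, which holds 98 bins. In the window from 180 to 200 Mb they were 32.8% in DKO1 and 35.8% in HCT116. In the windows from 60 to 80 Mb and from 80 to 100 Mb, towards the centromere on 1p, mean shares were intermediate. Each of these windows holds both early and late domains (below), so the mean does not describe a single stretch. These shares were 44.0% and 46.8% in DKO1 and 49.7% and 51.0% in HCT116.

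**Figure D1:**
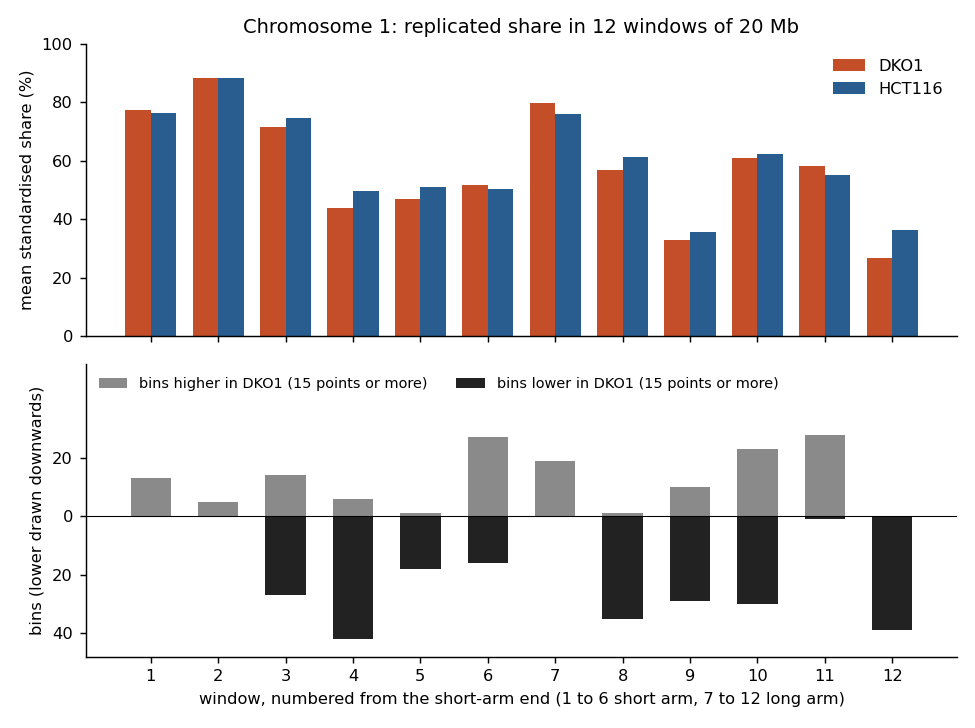
Mean standardised replicated share (upper panel, percent of cells) and number of bins that differ by at least 15 points (lower panel) in 12 windows of 20 Mb on chromosome 1, without 120 to 140 Mb, DKO1 in orange and HCT116 in blue in the upper panel. Windows 1, 2 and 7 hold no bin that is lower in DKO1 by 15 points, while window 12 holds 39 of them among 98 bins.

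Early domains were defined as runs of at least 5 bins in which the mean of both lines' shares was 70% or more, and late domains as runs at 30% or less. This gave 50 early domains with 92.0 Mb of bins (44.9% of the chromosome's bins) and 27 late domains with 48.96 Mb (23.9%). The arms differed in make-up. On 1p, 26 early domains took 51.4% of the bins and 13 late domains 22.8%. On 1q, 24 early domains took 37.2% and 14 late domains 25.2%. The median early domain held 1.08 Mb of bins and the median late domain 1.04 Mb.

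Most of the longest early domains were replicated in 96.04 to 99.7% of the cells of each line, with lower values in 2 domains of 1q. On 1p they were chr1:39040001-48080000, with a share of 94.6% in DKO1 and 94.8% in HCT116, chr1:5760001-12480000 (91.8% in DKO1, 93.6% in HCT116), chr1:18960001-24000000 (92.6% in DKO1, 93.0% in HCT116) and chr1:51200001-56000000 (89.9% in DKO1, 94.5% in HCT116). On 1q they were chr1:200320001-205440000 (92.1% in DKO1, 92.5% in HCT116), chr1:153040001-157280000 (95.4% in DKO1, 95.8% in HCT116), chr1:171360001-174320000 (79.5% in DKO1, 82.0% in HCT116) and chr1:177840001-180640000 (79.3% in DKO1, 87.9% in HCT116). The longest of them, chr1:39040001-48080000, was called replicated in 196 of 202 DKO1 cells and 321 of 322 HCT116 cells. The exceptions were chr1:171360001-174320000, in 179 of 203 DKO1 cells (88.2%) and 285 of 322 HCT116 cells (88.5%), and chr1:177840001-180640000, in 175 of 206 DKO1 cells (84.95%) and 298 of 322 HCT116 cells (92.5%). All 8 had a lower share in DKO1, with differences between -8.57 and -0.22 points.

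The longest late domains were unreplicated in most cells of both lines, and there the differences ran both ways. On 1p they were chr1:71440001-75680000 (13.5% in DKO1, 14.3% in HCT116), chr1:79120001-83440000 (7.94% in DKO1, 6.96% in HCT116), chr1:104560001-108400000 (9.22% in DKO1, 4.94% in HCT116) and chr1:96160001-99760000 (20.96% in DKO1, 18.1% in HCT116). On 1q they were chr1:186880001-192240000 (13.4% in DKO1, 6.20% in HCT116), chr1:236960001-241680000 (8.88% in DKO1, 4.55% in HCT116), chr1:215840001-218240000 (14.9% in DKO1, 17.1% in HCT116) and chr1:194320001-196720000 (9.40% in DKO1, 11.1% in HCT116). The domain chr1:236960001-241680000 was the latest of the 8 in HCT116, with most of it replicated in 4 of 202 DKO1 cells and 1 of 313 HCT116 cells. Of these 8 late domains, 5 had a higher share in DKO1 and 3 a lower one.

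Of the 16 domains just named, those that end at 12480000, 24000000, 83440000 and 205440000 and the one that starts at 104560001 border stretches with no bins, so their full length is not known. Over all domains, 42 of 50 early domains had a lower share in DKO1 and 21 of 27 late domains a higher one. The domains were read in the same cells, so a few unusual cells can move many of them together. These counts were not repeated without the cells in which an arm stood apart (below), and none are given for the other autosomes. Bins of the other autosomes differed by a mean of -3.36 points in the early class and 5.02 points in the late class (below). The directions were therefore not particular to chromosome 1. The median difference was -3.14 points in early domains and 3.28 points in late domains. Short domains differed most. The early domain chr1:244800001-245280000 had 61.4% in DKO1 and 87.1% in HCT116, and the early domain chr1:62000001-62400000 had 65.4% in DKO1 and 85.1% in HCT116. Both held 15-point differences in every bin. In the other direction, the late domain chr1:181520001-182080000 had 32.4% in DKO1 and 13.2% in HCT116, and the late domain chr1:118800001-119520000 had 31.0% in DKO1 and 14.5% in HCT116. With each line's own share as the basis, DKO1 had 42 early domains with 86.2 Mb and HCT116 had 53 with 97.4 Mb, and DKO1 had 28 late domains with 49.7 Mb and HCT116 had 33 with 52.5 Mb.

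The borders of domains, taken as the places where a line's smoothed share crossed 50%, numbered 71 in DKO1 and 79 in HCT116. Of these, 57 could be paired within 480 kb and in the same direction, which left 14 borders of DKO1 and 22 of HCT116 with no partner. Paired borders lay a median of 90.9 kb apart, close to the size of 1 bin, and 26 of the 57 lay within 80 kb. The early side reached further in DKO1 at 27 borders and less far at 30. By more than 160 kb it reached further at 8 and less far at 8, so the paired borders showed no common direction. The pairing leaves out moves of more than 480 kb. No paired border lay within chr1:198640001-200480000, chr1:55600001-57600000 or chr1:218080001-220080000, the leading stretches lower in DKO1 (below). The balance therefore says nothing about larger moves.

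Bins were also set in 3 equal classes of timing, from all autosomal bins ranked by the mean of both lines. Of chromosome 1, 1123 bins (43.8%) fell in the early class, 833 in the middle and 607 in the late class. The early bins had a share of 88.1% in DKO1 and 91.5% in HCT116 (difference -3.33 points), the middle bins 49.2% in DKO1 and 53.0% in HCT116 (-3.74 points) and the late bins 14.9% in DKO1 and 11.2% in HCT116 (3.75 points). Since the classes used both lines' shares, these are a description. The counting intervals all span 0, at -9.07 to 2.23 points for early, -12.8 to 5.22 for middle and -2.35 to 10.3 for late bins. They do not measure the spread of shares between cells, so they decide nothing about these differences. With cells limited to 1% of code 0 (61 DKO1 and 188 HCT116 cells at 30 to 70% progress), early bins differed by -1.77 points and late bins by 1.56 points, while all cells at 30 to 70% gave -3.92 and 4.26 points. With bins limited to those called in 99% of cells, late bins differed by 16.4 points and middle bins by 0.96 points. The signs in the early and late bins were those found over the other autosomes, where the differences were -3.36 and 5.02 points. In late bins the difference was 0.05 points in cells at 20 to 30%, 2.15 at 30 to 40% and 3.45 at 40 to 50%. It was 5.596 points at 50 to 60%, 5.29 at 60 to 70% and 5.95 at 70 to 80%, so it changed little from 50% on. In the first stratum hardly any late bins were replicated (0.43% in DKO1, 0.38% in HCT116), which leaves no room for a difference there. In the stratum at 70 to 80%, 43.9% of late bins were replicated in DKO1 (8 cells) and 37.9% in HCT116 (13 cells).

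Bins that differed by at least 15 points were gathered in a limited number of places. Of the chromosome's bins, 147 (5.74%) were higher in DKO1, where 6.72% of all autosomal bins were. A further 237 bins (9.25%) were lower in DKO1, where 7.82% of all autosomal bins were. Neither share is far from that of all autosomes. The median absolute difference per bin was 5.06 points on chromosome 1 and 6.18 points on the other autosomes, and 3.82 points on 1p and 6.12 points on 1q. The bin nearest above the limit differed by 15.1 points and that nearest below it by 14.96 points among higher bins, and the lower bins ended at -15.04 and -14.9 points. Higher bins lay in every window except the last, with 97 of 147 in the windows from 100 to 120, 140 to 160, 200 to 220 and 220 to 240 Mb. Lower bins were missing from the windows from 0 to 20, 20 to 40 and 140 to 160 Mb, which are the earliest ones, and made up 39 of 98 bins (39.8%) in the last window.

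**Figure D2:**
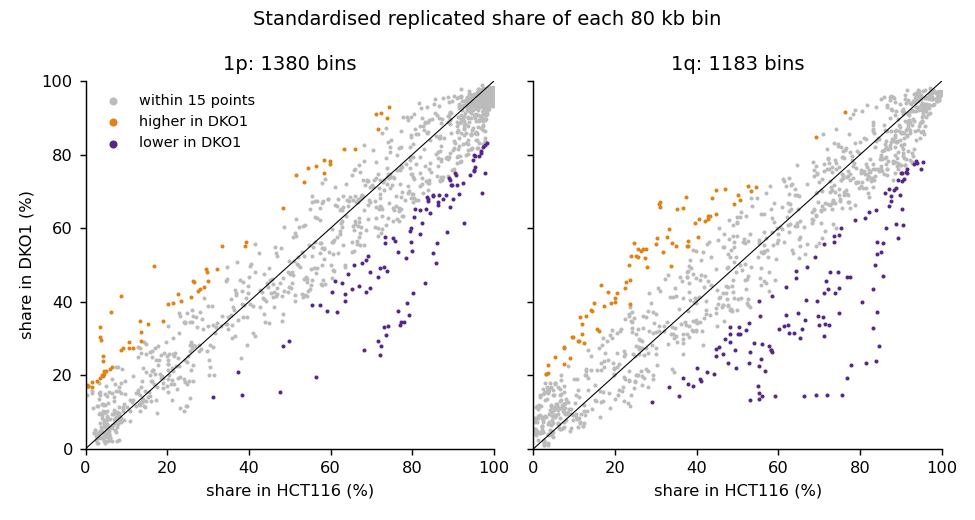
Standardised replicated share of each 80 kb bin in DKO1 (vertical axis, percent of cells) against HCT116 (horizontal axis), with 1380 bins of 1p on the left and 1183 bins of 1q on the right. Most points lie near the diagonal, and the purple group far below it on 1q includes the bin with 14.6% in DKO1 and 75.6% in HCT116.

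Runs of at least 5 such bins covered 4.25% of the chromosome's bins in the higher direction (15 runs, against 5.04% of all autosomal bins) and 7.53% in the lower direction (14 runs, against 5.95%). The runs lower in DKO1 were the longer ones, with a median of 0.8 Mb (range 0.48 to 2.0 Mb) and 6 runs of 1 Mb or more. Those higher in DKO1 had a median of 0.56 Mb (range 0.4 to 1.2 Mb), with 1 run of 1 Mb or more. The runs were chosen by the difference, so their shares are a description. Without the cells in which 1p or 1q stood apart (below), 13 runs were higher and 14 lower.

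The run with the largest summed difference, chr1:198640001-200480000 on 1q, was early to middle in HCT116 and late in DKO1. Most of it was replicated in 0 of 11 DKO1 cells (interval 0 to 28.5%) and 20 of 34 HCT116 cells (58.8%, 40.7 to 75.4%) at 20 to 30% progress. At 30 to 40% the counts were 0 of 41 DKO1 cells (interval 0 to 8.60%) and 29 of 49 HCT116 cells (59.2%, 44.2 to 73.0%). At 50 to 60% they were 8 of 49 DKO1 cells (16.3%, 7.32 to 29.7%) and 71 of 80 HCT116 cells (88.8%, 79.7 to 94.7%). More than 50% of the HCT116 cells counted in the first stratum had thus replicated the run, though the interval includes 50%. Most DKO1 cells had not done so by the stratum at 60 to 70%, where 11 of 39 DKO1 cells (28.2%) and 71 of 81 HCT116 cells (87.7%) had. A logistic curve of its state on progress outside chromosome 1 crossed 50% at 71.0% progress in DKO1 and 26.1% in HCT116.

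Within this run, 7 neighbouring bins (chr1:199440001-200000000) were late in DKO1, with shares of 14.5 to 28.0%, and early in HCT116, with shares of 71.8 to 84.6%. The bin chr1:199520001-199600000 had 14.6% in DKO1 and 75.6% in HCT116, and its difference of -61.0 points was the lowest of all autosomal bins used, the lowest on the other autosomes being -49.0 points. A change of this kind, from 70% or more in HCT116 to 30% or less in DKO1, was found in 10 bins of chromosome 1 and in 2 bins of the other autosomes. The remaining 3 on chromosome 1 were chr1:56400001-56640000, with 25.6 to 29.4% in DKO1 and 71.6 to 72.3% in HCT116. The opposite change, early in DKO1 and late in HCT116, was found in 0 bins of any autosome.

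The surroundings of the leading run kept their timing. The 1 Mb before it had a mean share of 40.9% in DKO1 and 38.7% in HCT116, and the 1 Mb after it, inside the long early domain that begins at 200320001, had 89.6% in DKO1 and 92.4% in HCT116. In HCT116 the run formed a slope that climbed towards that early domain. In DKO1 its share of 26.6% lay below both flanks, so the run was a valley.

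The run next in rank was the shoulder of an early domain in HCT116. This run, chr1:55600001-57600000 on 1p, overlaps the end of the long early domain that stops at 56000000 and had a share of 37.8% in DKO1 and 73.6% in HCT116. Its flanks were 89.1% in DKO1 and 93.4% in HCT116 on the side of that domain, and 12.4% in DKO1 and 8.75% in HCT116 on the other. Replication of most of it was seen in 3 of 42 DKO1 cells (7.14%) and 33 of 48 HCT116 cells (68.8%) at 30 to 40% progress, and in 20 of 39 DKO1 cells (51.3%) and 76 of 81 HCT116 cells (93.8%) at 60 to 70%. The curve crossed 50% at 61.2% progress in DKO1 and 26.6% in HCT116. The share thus left its early level nearer to the domain in DKO1, as the profile of that run shows.

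The run chr1:218080001-220080000 on 1q had a share of 38.3% in DKO1 and 69.5% in HCT116. At 50 to 60% progress most of it was replicated in 16 of 48 DKO1 cells (33.3%, interval 20.4 to 48.4%) and 69 of 79 HCT116 cells (87.3%, 77.95 to 93.8%). Its curve crossed 50% at 60.4% progress in DKO1 and 35.4% in HCT116. Close to the end of 1q, the runs chr1:244720001-246160000 (42.3% in DKO1, 64.3% in HCT116) and chr1:246240001-247840000 (34.9% in DKO1, 61.1% in HCT116) are separated by 1 bin that differed by -13.6 points, and they hold 18 and 20 of the 39 lower bins of the last window. By their flanks of 1 Mb, both counted as peaks in both lines. However, the inner flank of each lies mostly in the other run. For chr1:244720001-246160000 that flank had 38.1% in DKO1 and 62.8% in HCT116, little below the run itself. For chr1:246240001-247840000 it had 29.6% in DKO1 and 49.5% in HCT116, and its outer flank rests on 1 bin. The flanks therefore do not show that these runs were separate peaks.

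The other runs lower in DKO1 that were named by rank were shorter. On 1p they were chr1:61280001-62560000 (52.5% in DKO1, 73.5% in HCT116), chr1:84000001-84720000 (52.1% in DKO1, 76.0% in HCT116), chr1:75920001-76640000 (48.1% in DKO1, 70.4% in HCT116) and chr1:100080001-100800000 (72.1% in DKO1, 90.4% in HCT116). On 1q it was chr1:164160001-165040000 (24.5% in DKO1, 51.0% in HCT116). The run chr1:84000001-84720000 begins where a stretch with no bins ends, so its true start is not known. Over all 14 lower runs the mean share was 46.5% in DKO1 and 71.1% in HCT116. By their flanks of 1 Mb, 7 were peaks and 7 slopes in HCT116, and 5 were peaks, 6 slopes and 3 valleys in DKO1. The peaks of both lines include chr1:244720001-246160000 and chr1:246240001-247840000, whose flanks do not show separate peaks (above). The curves crossed 50% later in DKO1 in all 14, by 10.1 to 44.96 points of progress.

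**Figure D3:**
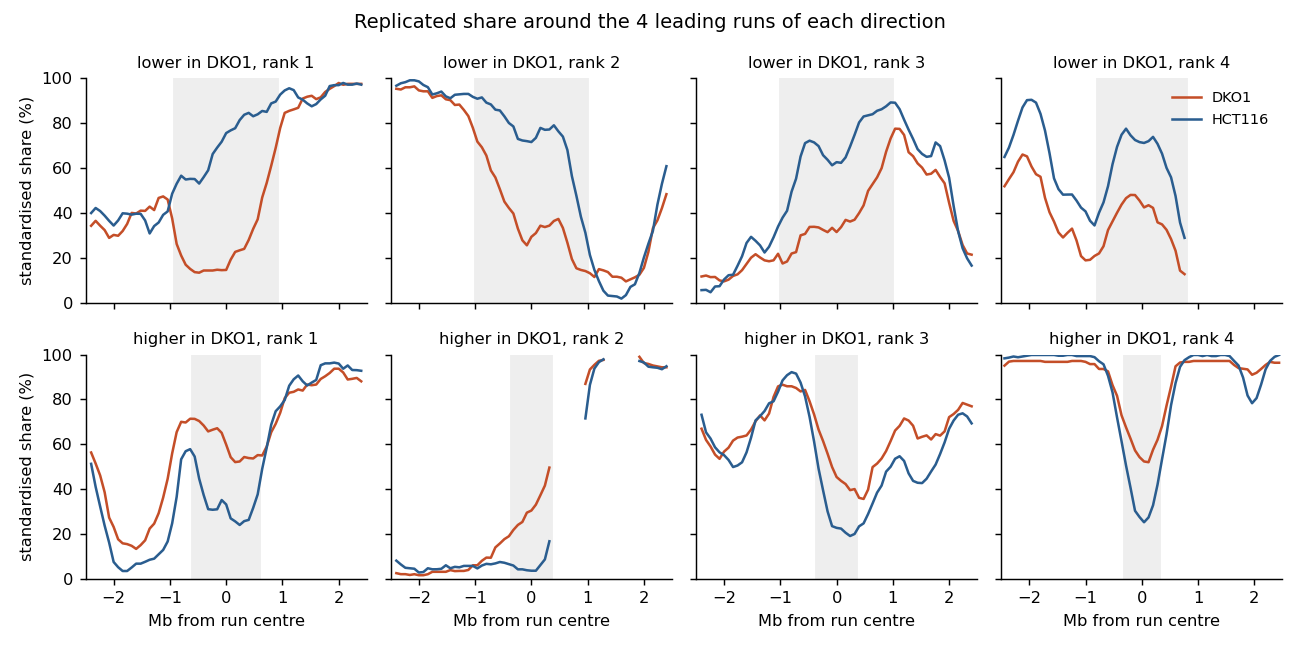
Standardised replicated share (percent of cells) against distance from the centre of the run in Mb, DKO1 in orange and HCT116 in blue, for the 4 leading runs lower in DKO1 (top) and the 4 leading runs higher in DKO1 (bottom), with the run shaded and lines broken where the table has no bins. In the run of rank 1 of the upper row the HCT116 line climbs through the run while the DKO1 line lies low, at 14.5 to 28.0% over the 7 bins that are early in HCT116, and in rank 4 of the lower row the same narrow valley is shallower in DKO1.

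Of the 15 runs higher in DKO1, 10 were valleys in HCT116, below both flanks, and 5 were slopes. Their shares in HCT116 ranged from 1.47 to 57.2%, so not all were late there. The leading run, given next, was a slope in both lines. The run with the largest summed difference, chr1:210000001-211200000 on 1q, had a share of 60.6% in DKO1 and 33.0% in HCT116. Most of it was replicated in 14 of 41 DKO1 cells (34.1%, interval 20.1 to 50.6%) and 1 of 48 HCT116 cells (2.08%, 0.0527 to 11.1%) at 30 to 40% progress. At 50 to 60% the counts were 39 of 48 DKO1 cells (81.3%, 67.4 to 91.1%) and 21 of 80 HCT116 cells (26.3%, 17.0 to 37.3%). The curve crossed 50% at 41.7% progress in DKO1 and 61.6% in HCT116. Its neighbour chr1:209280001-209840000 (46.6% in DKO1, 23.4% in HCT116) lies 0.16 Mb before it, and the 2 bins between them differed by 13.2 points.

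The run chr1:107760001-108480000 on 1p was among the latest in HCT116. Its share was 32.5% in DKO1 and 6.31% in HCT116, and it lies at the end of the late domain that begins at 104560001, next to a stretch with no bins. At 60 to 70% progress most of it was replicated in 23 of 39 DKO1 cells (59.0%, interval 42.1 to 74.4%) and 3 of 81 HCT116 cells (3.70%, 0.770 to 10.4%). At 70 to 80% it was replicated in 7 of 8 DKO1 cells and 2 of 13 HCT116 cells, so the run had been left for the end of S phase in most HCT116 cells. The curve crossed 50% at 63.3% progress in DKO1, and for HCT116 the crossing lay beyond the progress of the observed cells.

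On 1q, the run chr1:152320001-152960000 was a narrow valley in a long early stretch. Its flanks had 91.7% and 92.2% in DKO1 and 91.3% and 90.03% in HCT116, and the run itself had 58.2% in DKO1 and 34.5% in HCT116. At 50 to 60% progress most of it was replicated in 38 of 49 DKO1 cells (77.6%) and 23 of 79 HCT116 cells (29.1%). The valley was thus kept in both lines and was shallower in DKO1. The run chr1:232000001-232720000 (49.4% in DKO1, 27.4% in HCT116) was also a valley but not within an early stretch, with flanks of 81.2% and 56.1% in DKO1 and 81.7% and 41.5% in HCT116.

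The other runs higher in DKO1 that were named by rank lay on 1q at chr1:221760001-222320000 (39.7% in DKO1, 17.5% in HCT116), chr1:181680001-182160000 (35.1% in DKO1, 13.3% in HCT116) and chr1:233520001-234000000 (66.7% in DKO1, 45.5% in HCT116), and on 1p at chr1:111280001-111840000 (76.8% in DKO1, 57.2% in HCT116) and chr1:118720001-119280000 (32.2% in DKO1, 14.3% in HCT116). Over all 15 higher runs the mean share was 44.3% in DKO1 and 23.4% in HCT116. By their flanks, 10 were valleys and 5 slopes in HCT116, and 8 were valleys and 7 slopes in DKO1. Some of these flanks lie partly in another higher run, as for chr1:209280001-209840000 and chr1:210000001-211200000. In the 10 runs where both curves crossed 50% within the observed progress, the crossing came earlier in DKO1 by 8.90 to 19.9 points.

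**Figure D4:**
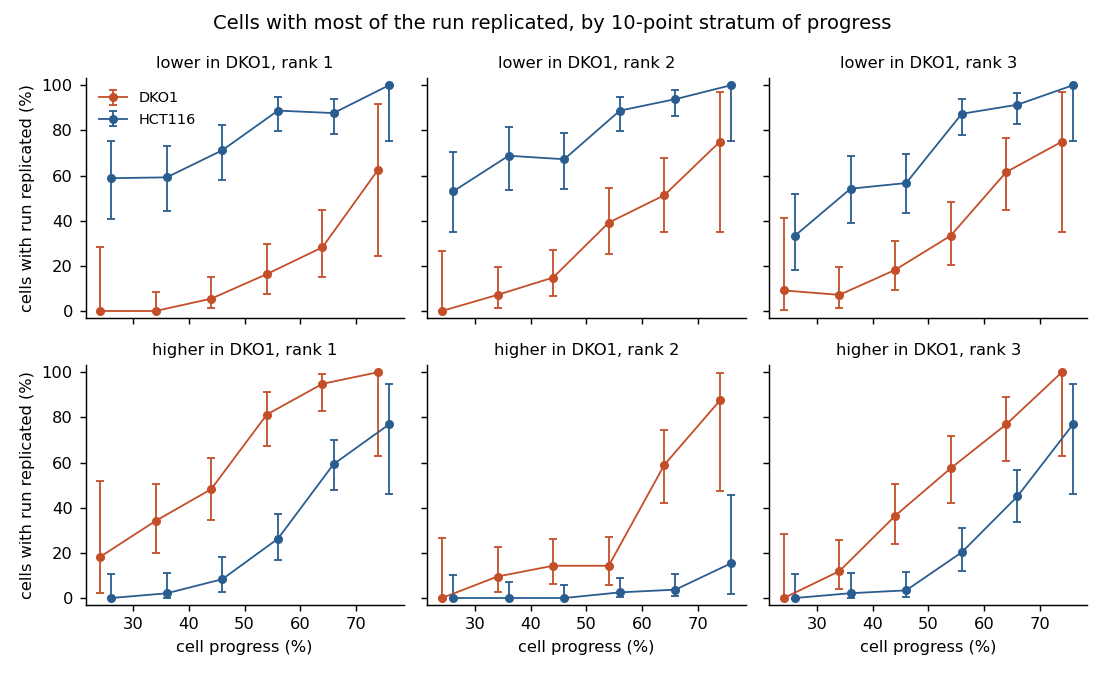
Percent of cells in which most of the run was replicated (vertical axis) in strata of 10 points of progress (horizontal axis), DKO1 in orange and HCT116 in blue, with exact 95% binomial intervals, for the 3 leading runs of each direction. In the run of rank 1 of the upper row 0 of 41 DKO1 cells and 29 of 49 HCT116 cells at 30 to 40% had replicated it.

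The leading runs were also read together in single cells at 50 to 60% progress. Of the 3 leading lower runs, 0 were replicated in 16 of 45 DKO1 cells (35.6%) and in 0 of 79 HCT116 cells, and all 3 in 2 of 45 DKO1 cells (4.44%) and 58 of 79 HCT116 cells (73.4%). Of the 3 leading higher runs, 0 were replicated in 3 of 47 DKO1 cells (6.38%) and 49 of 79 HCT116 cells (62.0%). The intermediate states were common in DKO1, where 20 of 45 cells had replicated 1 of the lower runs and 7 had replicated 2. Runs were not always copied as a block. In the run chr1:198640001-200480000, between 25 and 75% of the called bins were replicated in 55 DKO1 cells (27.0%) and 109 HCT116 cells (34.1%), and in the run chr1:55600001-57600000 in 70 DKO1 cells (34.7%) and 75 HCT116 cells (23.4%).

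Agreement between single cells of a line was read from pairs of cells. Among cells at 40 to 60% progress, 2 cells of a line within 5 points of each other differed in 23.2% of the chromosome's bins in DKO1 (105 cells, 2336 pairs) and 16.5% in HCT116 (141 cells, 4331 pairs), 1.41 times as many. The difference of 6.73 points had a counting interval of -3.87 to 17.4 points, which spans 0, with cells as the counted units. That interval does not measure how discordance spread between pairs or cells, so it decides nothing about the difference. The ratio on the other autosomes was 1.35. On 1p the values were 22.8% in DKO1 and 13.5% in HCT116, and on 1q 24.8% in DKO1 and 20.3% in HCT116. In cells with code 0 in no more than 1% of bins the difference over the chromosome was 3.67 points. In the early bins of 1p the values were 13.1% in DKO1 and 3.92% in HCT116, and without the cells in which an arm stood apart they were 8.40% in DKO1 and 3.52% in HCT116. With all cells, early bins of 1q had 13.5% in DKO1 and 7.74% in HCT116. Those of the other autosomes had 13.3% in DKO1 and 6.34% in HCT116. The DKO1 value on 1p was thus near that elsewhere, and the HCT116 value was lower. The state switched along the chromosome a median of 106 times in DKO1 (quartiles 92 and 119) and 112 times in HCT116 (quartiles 101 and 124), so the quartile ranges overlapped.

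Part of this spread moved with cells in which an entire arm stood apart. The share of 1p lay more than 15 points from the line's straight-line relation to progress outside chromosome 1 in 12 of 207 DKO1 cells (5.80%, interval 3.03 to 9.91%) and 3 of 322 HCT116 cells (0.932%, 0.193 to 2.70%). On 1q this held for 6 DKO1 cells (2.90%, 1.07 to 6.20%) and 5 HCT116 cells (1.55%, 0.506 to 3.59%). Among the outlying DKO1 cells, 3 for 1p and 3 for 1q had a share under 10%, and 1 of each had a share over 90%. Code 0 took 33.4% of the bins of the outlying 1p arms in DKO1 and 32.5% of those of 1q, against 3.74% of 1p and 30.5% of 1q in HCT116. Without these cells, pairs differed in 20.1% of the chromosome's bins in DKO1 (96 cells) and 15.8% in HCT116 (137 cells), and the ratio was 1.27. On 1p the values then were 17.8% in DKO1 and 13.1% in HCT116, and on 1q 22.9% in DKO1 and 19.2% in HCT116. The gap between the lines on 1p was thus 9.26 points with these cells and 4.71 points without them.

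**Figure D5:**
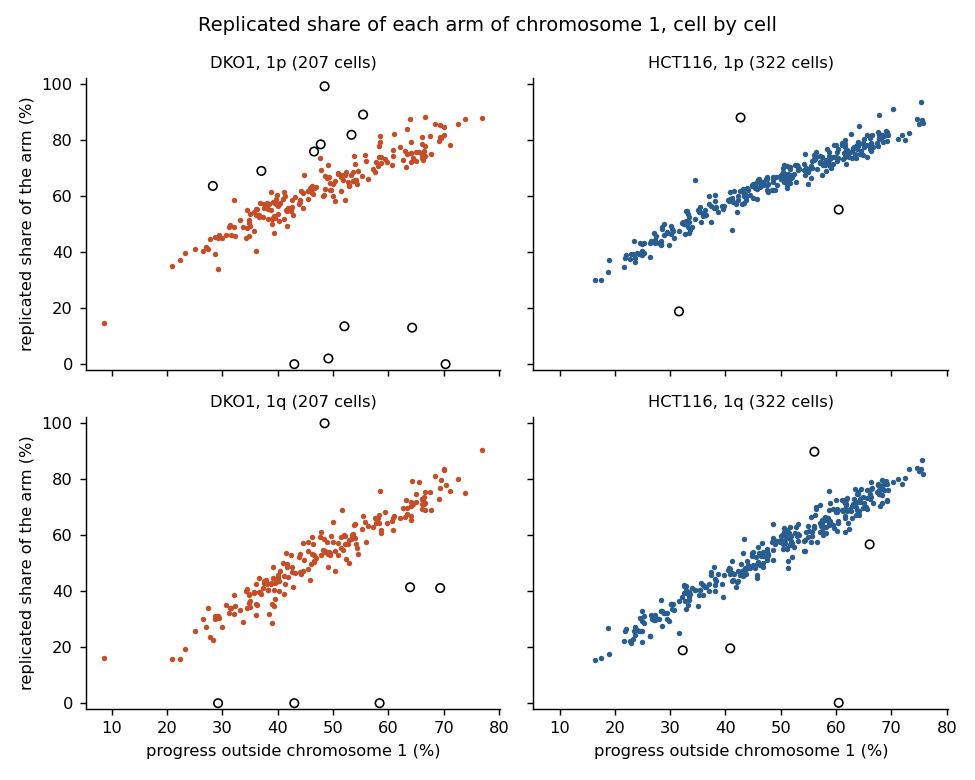
Replicated share of 1p (top) and 1q (bottom) in each cell against progress outside chromosome 1, both in percent, for 207 DKO1 cells (left) and 322 HCT116 cells (right), with open circles for cells more than 15 points from the line's relation. On 1p, 12 DKO1 cells and 3 HCT116 cells are marked, and several of the marked DKO1 cells lie near 0.

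At the ends of the observed range few bins were out of order in either line. The classes were ranked by shares that include nearly all of these same cells, so low values are largely set by the ranking. In cells under 30% progress, the late bins of chromosome 1 were replicated in a mean of 0.456% in DKO1 (13 cells, range 0 to 1.98%) and 0.368% in HCT116 (38 cells, range 0 to 1.65%). In cells from 70% progress, the early bins were still unreplicated in 1.12% in DKO1 (8 cells, range 0 to 4.01%) and 0.411% in HCT116 (13 cells, range 0 to 3.65%). The ranges of the cells overlapped in both comparisons. Progress was not matched in them, with medians of 27.7% in DKO1 and 25.9% in HCT116 among the early cells, and of 71.6% in DKO1 and 73.2% in HCT116 among the late cells.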

How the data were processed

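The authors deposited a state code (0, 1 or 2) per 80 kb bin and cell, with bin positions and cell names per the file headers; the table's name marks it as hidden Markov model (HMM) output. Cell Ranger, SAMtools 1.10 and bedtools 2.26.0 are listed, per the submitters' processing notes, as are hg19 and GRCh37. HMM software, filters and reads per cell: not given in the sources used here; depth is therefore unknown. Coordinates are as deposited. Code 2 was read as replicated because chromosomes with more protein-coding genes per Mb held more of it, over 21 chromosomes (Spearman's rho 0.88 in DKO1 and 0.85 in HCT116, densities from the GRCh38.p14 RefSeq table). No annotation of the files' build was used, so genes were not assigned to bins, the gene lists were not run and no sequence is shown. On chromosome 1 the table skips 39 further stretches, 6 of them over 1 Mb, which were not analysed here. The G1 libraries were not analysed here.

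Shares, runs, domains and curves were computed in Python 3.11.15 with numpy 2.4.6, pandas 2.3.3 and scipy 1.17.1. The steps for shares and runs were tried on simulated cells, while domains, borders and curves were not. No doublet caller was run. Runs and domains bridge at most 1 missing bin. Named were the 10 runs with the largest summed difference in each direction and the 4 longest early and late domains of each arm; the bins that changed from early to late, the shortest domains with large differences and the code 0 values were chosen after their values were seen. Chromosome 1 and these lists were chosen with earlier results of these data known. Cells of a line are not replicates, and no paired analysis was possible because each line is 1 S-phase library.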

Additional observations from a re-analysis of the deposited data

Results flagged for a closer look

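Code 0, which the comparisons leave out, was more frequent in DKO1 than in HCT116 on chromosome 1, taking 1.94% of bin states in DKO1 against 0.523% in HCT116. The other autosomes had 2.89% in DKO1 and 1.13% in HCT116, so this direction was not particular to chromosome 1. On 1p it took 2.24% in DKO1 and 0.171% in HCT116, and on 1q 1.59% in DKO1 and 0.934% in HCT116. On chromosome 1 it was concentrated in few cells, and the median cell had 0% in both lines. More than 10% of the chromosome was uncalled in 12 of 207 DKO1 cells and 8 of 322 HCT116 cells. An unbroken stretch of at least 25 uncalled bins occurred in 24 DKO1 cells (11.6%, exact interval 7.57 to 16.8%) and 14 HCT116 cells (4.35%, 2.40 to 7.19%). In the 10 named runs lower in DKO1, code 0 took 1.29 to 2.84% in DKO1 and 0 to 1.43% in HCT116, and was higher in DKO1 in each; the run chr1:100080001-100800000 had 2.79% in DKO1 and 0% in HCT116, and chr1:198640001-200480000 had 1.39% in DKO1 and 0.729% in HCT116. In the 10 named higher runs it took 0.215 to 1.79% in DKO1 and 0 to 2.44% in HCT116. The part of uncalled bins in the differences was not tested beyond the settings given next.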

How the results depend on the processing

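The 10 named higher runs stayed higher in DKO1 under every setting tried that could give a value (16.8 to 32.1 points). The 10 named lower runs stayed lower (-49.96 to -13.9 points), with 100 of 101 values of 15 points or more. The runs were chosen by this difference in largely the same cells, so this outcome was largely set by the choice. The values include those without a filter on bins, which repeat the main ones. With the limit of 99% (below), chr1:75920001-76640000 was the only named lower run with a value (-20.7 points). Leaving out the filter on bins kept all 2563 bins, so it tests nothing for shares, bins and runs of this chromosome. With a stricter limit of 99% of cells called per bin, which left 530 bins, the late bins differed by 16.4 points, 45 bins were higher and 21 lower, 4 runs were higher and 2 lower, the difference in switches was -1, and the mean differences of 1p and of the middle bins had the other sign (3.89 and 0.96 points, against -1.90 and -3.74). With a limit of 10 points, 310 bins were higher, 411 lower and 26 runs lower; with 20 points, 63 bins were higher and 135 lower, in 6 and 9 runs. With runs of at least 8 bins 4 were higher. In cells at 45 to 55% progress the difference in switches was -11, against -6. With cells limited to 1% of code 0 (61 DKO1 and 188 HCT116 cells at 30 to 70%), the early bins differed by -1.77 points, the late bins by 1.56 and pair discordance by 3.67, against -3.33, 3.75 and 6.73; this setting also changes the cells and strata. Without the cells outlying on an arm, early bins differed by -2.20 points. With code 0 read as unreplicated, middle bins differed by -1.62 points and 1q by -0.78 (against -3.74 and -1.66). Settings without cells outlying on an arm, and with progress from the filtered bins, were chosen after seeing the data. Depth per call is unknown, and few cells lay under 30% or from 70% progress.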
